A study of Mus musculus with 6 samples.

Results

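The clustered protocadherins are a family of cell adhesion proteins encoded by the alpha, beta and gamma gene arrays of mouse chromosome 18. They were examined in whole adult brain of mice that lack the editing activity of ADAR1. Members were all rows of the count table whose gene symbol is that of an alpha, beta or gamma protocadherin, which gave 24 rows of 37310. Of these, 1 row was of the alpha cluster, 22 of the beta cluster and 1 of the gamma cluster.

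RNA was sequenced from whole brain of 12-week-old male mice on a C57BL/6 background, 3 animals per genotype. One genotype was *Adar1* E861A/E861A *Ifih1*-/- (here E861A) and the other *Adar1*+/+ *Ifih1*-/- (here wild type). E861A is a point mutation that abolishes adenosine-to-inosine editing by ADAR1 in every cell of the animal, and both genotypes lack *Ifih1*, which encodes the RNA sensor MDA5, so no animal with intact MDA5 was compared. The comparison asks whether the loss of ADAR1 editing alters the brain transcriptome once MDA5 is absent.

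Protocadherins of these arrays are displayed on the surface of neurons, where they bind the same isoform on an opposing membrane. Each neuron is thought to express a small and largely random set of isoforms, chosen by the activation of individual promoters through CTCF, cohesin and distant enhancers, and this combination serves as an identity by which the branches of a neuron recognise and avoid one another. In the alpha and gamma clusters a variable first exon is spliced to constant exons shared by the whole cluster, whereas a beta gene is a single coding exon with no shared part.

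This organisation sets what the rows hold. The alpha row, listed as *Pcdha11* (ENSMUSG00000007440; chromosome 18, 37089939 to 37347311, NCBIM37), is a gene model in GENCODE vM1 with 10 transcripts, 10 different first exons and the constant exons. The gamma row, listed as *Pcdhga8* (ENSMUSG00000023036; chromosome 18, 37833989 to 38001527) and named *Pcdhgc5* in GENCODE vM1, likewise has 10 transcripts with 10 different first exons. First exons were told apart by their coordinates and may overlap. With overlapping exons merged, the gamma model has 11 exons in all. RefSeq gives 14 alpha and 22 gamma genes, more than the first exons of either model. Each row thus sums many isoforms, without a first exon for every one, and does not stand for the isoform in its name. The use of single alpha or gamma isoforms, C-type isoforms included, could not be read. The 22 beta rows match the 22 beta genes of RefSeq, and isoform use could be followed there.

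The beta genes lie in numerical order on the plus strand, from *Pcdhb1* (chromosome 18, 37424652 to 37427108) to *Pcdhb22* (chromosome 18, 37678007 to 37681073). Of the 22 models, 20 are a single exon, and *Pcdhb20* is annotated as a pseudogene. Exon length ran from 2350 to 7131 bases, with a median of 3472, and GC content from 41.2% to 52.7%. Coding sequences of the 21 beta genes annotated as coding shared 58.9% to 89.8% of aligned bases over 210 pairs, with a median of 74.6%. The closest pair was *Pcdhb7* and *Pcdhb9* at 89.8%, followed by *Pcdhb6* and *Pcdhb8* at 89.4%, while *Pcdhb1* stood furthest from the rest, its nearest relative being *Pcdhb2* at 61.7%.

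Such similarity can cost reads where fragments matching several places are left out of the counts. Between 0% and 4.05% of the 75-base windows in a beta gene occurred more than once on chromosome 18, with the highest values in *Pcdhb12* at 4.05% and *Pcdhb6* at 4.02%. The share was 6.31% for the alpha row and 1.00% for the gamma row. Any loss of this kind, and any division of reads between near-identical stretches, cannot be checked from the counts.

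Libraries held 26853488 to 36285305 counts in E861A and 35702138 to 38076753 in wild type. Neuronal, astrocyte and oligodendrocyte markers were all detected, as the tissue label states. E861A replicate 1 stood apart in pituitary transcripts (438.6 CPM summed over 5 marker genes, against at most 3.31 CPM in any other library, CPM being a count divided by its library total and multiplied by 1000000), so results are also given without it. In whole tissue, fewer cells of a type and less RNA per cell cannot be told apart.

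Levels were first compared within the family. The gamma row was the highest, at 429.7 CPM over the 6 libraries. The alpha row followed with 166.4 CPM, and the 22 beta genes ranged from 0.167 to 25.7 CPM with a median of 7.08 CPM. Of all counts in the 24 rows, the gamma row took 52.1% to 54.3% per library, the beta rows 24.8% to 26.6% and the alpha row 20.1% to 21.3%. These are shares of the rows, since the alpha and gamma rows lack some first exons of their clusters. Per kb of exon not shared with another gene, the gamma row stood at 15.7 CPM and the alpha row at 7.60 CPM, but these models add up many alternative first exons and are not levels of an isoform.

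**Figure D1:**
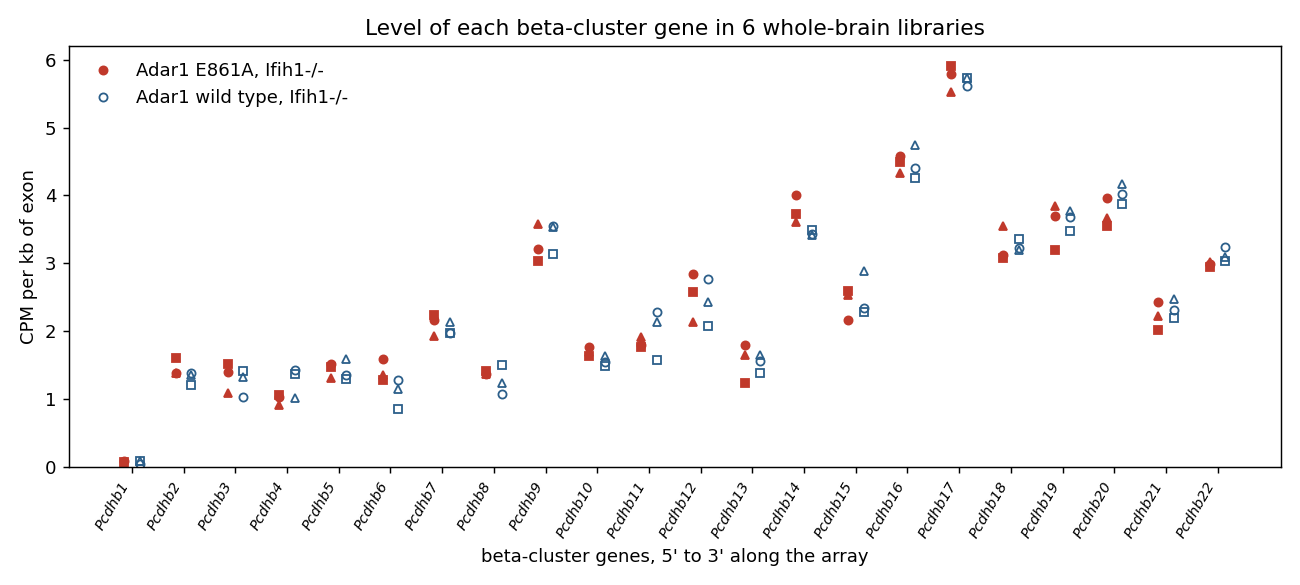
Level of each of the 22 beta genes in CPM per kb of exon (y axis), in their order along the array (x axis). Filled red points are the 3 E861A libraries and open blue points the 3 wild-type libraries, with circles, squares and triangles for replicates 1 to 3; *Pcdhb1* lies near 0 and the highest gene is *Pcdhb17*, with both genotypes intermingled in most genes.

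Per kb of exon, the level of the beta genes tended to rise along the array up to *Pcdhb17*, and was lower in each gene beyond it. *Pcdhb17* was the highest with a mean of 5.72 CPM per kb and a range of 5.52 to 5.91 over the 6 libraries. *Pcdhb16* came next with 4.47 CPM per kb and a range of 4.25 to 4.75. These genes took the first and the second place in every library.

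At the other end, *Pcdhb1* was nearly silent. It had 6, 6 and 3 counts in the E861A libraries and 4, 8 and 7 counts in the wild-type ones, or 0.0679 CPM per kb on average, and was the lowest beta gene in every library. Leaving it aside, the ratio of the highest to the lowest beta gene per kb was 5.49 to 6.75 per library. *Pcdhb4* was the next lowest, with 1.13 CPM per kb.

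Between these ends most neighbours in the order could not be told apart. Of the 21 steps between genes adjacent in the order per kb, 4 had every library of the higher gene above every library of the lower. These steps lay below *Pcdhb17*, below *Pcdhb16*, between *Pcdhb22* and *Pcdhb12*, and above *Pcdhb1*. The other 17 steps overlapped between libraries.

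*Pcdhb16* to *Pcdhb22*, the 3′ end of the array, had levels of 2.27 to 5.72 CPM per kb with a median of 3.61. With *Pcdhb15* included, the median of that stretch was 3.43 CPM per kb. *Pcdhb2* to *Pcdhb14* had levels of 1.13 to 3.61 CPM per kb with a median of 1.54. Across the 22 genes, the position in the array and the level per kb gave a Spearman rho of 0.80 and a Pearson r of 0.73, as a description over genes that share the same libraries. Position also went with exon length (rho 0.37) and with GC content (rho -0.36), while level went with length at rho 0.29 and with GC content at rho -0.31. *Pcdhb9* and *Pcdhb14* departed from the gradient, with 3.34 and 3.61 CPM per kb, above *Pcdhb15* at 2.47 and *Pcdhb21* at 2.27.

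**Figure D2:**
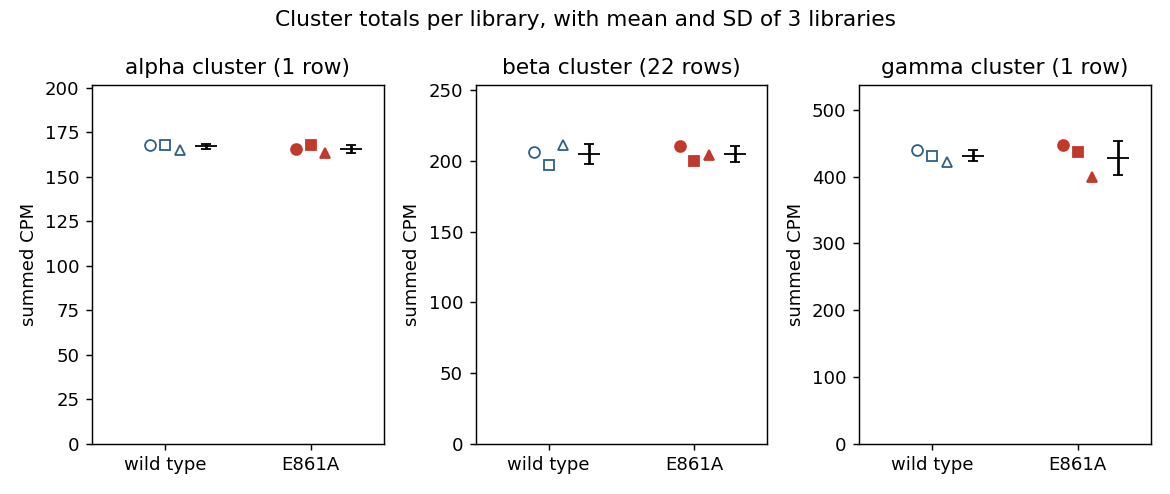
Summed CPM of the alpha, beta and gamma rows (y axes, each from 0) in wild-type (open blue) and E861A (filled red) libraries, with circles, squares and triangles for replicates 1 to 3 and black bars for the mean and SD of 3 libraries. The genotypes overlap in each cluster, and the widest spread is among the E861A libraries of the gamma row, from 399.9 to 447.8 CPM.

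The summed level of the rows of each cluster was then compared between genotypes. The alpha row was at 165.8, 167.8 and 163.5 CPM in the 3 E861A libraries and at 168.1, 168.1 and 165.3 CPM in wild type. All 6 libraries thus lay within 163.5 to 168.1 CPM and the genotypes overlapped. The log2 fold change, E861A over wild type, was -0.011 ± 0.043 (SE), with a 95% interval from -0.10 to 0.08 (adjusted p 0.960, edgeR quasi-likelihood test).

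The gamma row was at 447.8, 436.9 and 399.9 CPM in E861A and at 439.6, 431.2 and 422.6 CPM in wild type. E861A replicates 1 and 3 were the highest and the lowest of the 6 libraries. The log2 fold change was -0.0088 ± 0.048 (SE), with a 95% interval from -0.11 to 0.09 (adjusted p 0.975). The direction of both rows turned when reads were corrected for GC content or when certain single libraries were left out.

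Summed over its 22 genes, the beta cluster was at 210.8, 200.1 and 204.2 CPM in E861A and at 206.5, 197.3 and 211.6 CPM in wild type. The means were 205.03 ± 5.43 and 205.2 ± 7.23 CPM (SD, n = 3), a difference far smaller than the spread between replicates. Without E861A replicate 1, the log2 ratios of the totals were -0.013 for alpha, -0.021 for beta and -0.043 for gamma.

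**Figure D3:**
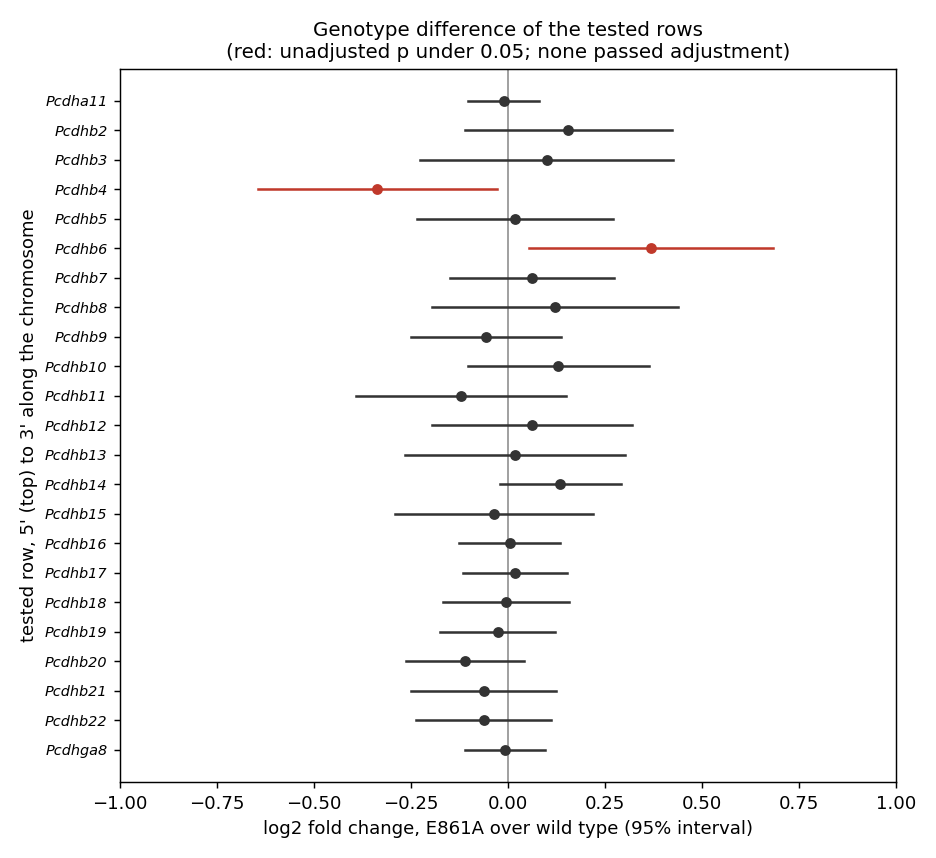
Log2 fold change of E861A over wild type (x axis) for the 23 rows that passed the expression filter, from 5′ (top) to 3′ along the chromosome, with 95% intervals as lines. *Pcdhb4* and *Pcdhb6*, in red, had an unadjusted p under 0.05, and no row passed after adjustment.

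Single genes were tested if all 3 libraries of a genotype reached a CPM of 2. Of the 24 rows, 23 passed, and *Pcdhb1* did not. *Pcdhb8* was the lowest row inside the filter, with 2.52 to 3.52 CPM, and *Pcdhb1*, with 0.11 to 0.21 CPM, the only one outside it. Called is used for an Benjamini-Hochberg adjusted p under 0.05 over all 13649 genes tested.

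Of the 23 rows, 0 were called by the edgeR quasi-likelihood test, where 0.506% of all genes tested were called. By direction, 0 rows were higher in E861A, where 0.41% of genes were, and 0 were lower, where 0.0952% were. The likelihood ratio test, DESeq2 and limma-voom also called 0, where they called 139, 82 and 68 of all 13649 genes. At an unadjusted p under 0.05 there were 2 rows (8.70%), where 9.01% of all genes tested passed. The other tools gave 2, 1 and 2 rows at that level, where 8.79%, 6.44% and 8.79% of all genes tested passed. The quasi-likelihood test gave 0 without E861A replicate 1 or replicate 3, where 8.04% and 5.54% of all genes passed. It gave 1 without wild-type replicate 1 or replicate 2, where 6.97% and 7.93% passed. The median log2 fold change was 0.0036 over the 23 rows, with 12 above 0 and 11 below, and -0.0010 over all genes tested.

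Intervals were narrow enough to bound most changes. For 21 of the 23 rows the 95% interval of the log2 fold change lay within -0.5 to 0.5, as it did for 93.1% of all genes tested. The lowest bound of any row was -0.64, a fold of 0.640, in *Pcdhb4*, and the highest was 0.68, a fold of 1.60, in *Pcdhb6*. The median biological coefficient of variation was 6.29% over the rows and 5.27% over all genes tested. In 14 of 48 combinations of a row and a genotype, the 3 replicates spread beyond counting noise (chi-square test), and in the other 34 such a spread was not detected. The largest chi-square per degree of freedom was 40.9, for *Pcdhga8* in E861A. This measure grows with the count, and *Pcdhga8* has the highest counts of the family. As a fraction, its biological coefficient of variation was 0.0436, below the median of the rows.

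The 2 rows with an unadjusted p under 0.05 moved in opposite directions. *Pcdhb6* (ENSMUSG00000051678; chromosome 18, 37493682 to 37497087) was at 5.40, 4.35 and 4.62 CPM in the E861A libraries and at 4.34, 2.89 and 3.92 CPM in the wild-type ones. The genotypes did not overlap, but E861A replicate 2 and wild-type replicate 1 had nearly the same count, 158 and 157. The log2 fold change was 0.37 ± 0.15 (SE), with an unadjusted p of 0.0255 and an adjusted p of 0.492 (edgeR).

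*Pcdhb4* (ENSMUSG00000045689; chromosome 18, 37467109 to 37470827) was at 3.84, 3.91 and 3.39 CPM in E861A and at 5.28, 5.09 and 3.75 CPM in wild type. Wild-type replicate 3 was below 2 of the E861A libraries, so the genotypes overlapped, although E861A was the lower in each of the 3 pairs of same-numbered libraries. The log2 fold change was -0.34 ± 0.14 (SE), with an unadjusted p of 0.0342 and an adjusted p of 0.524 (edgeR). These rows were the largest rise and fall of the family by estimate. With the replicate number as a block, which pairs the libraries, the adjusted p were 0.193 for *Pcdhb4* and 0.152 for *Pcdhb6*. They share 86.5% of their coding bases, and the repeated windows made up 4.02% of *Pcdhb6* and 1.26% of *Pcdhb4*.

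The genotypes did not overlap in CPM for 4 of the 23 rows (17.4%), where 13.8% of all genes tested did not overlap. Besides *Pcdhb6*, *Pcdhb10* and *Pcdhb14* lay higher in E861A and *Pcdhb22* lower. The 3 higher rows stood against 6.98% of all genes tested and the 1 lower row against 6.81%. *Pcdhb14* was at 13.8, 12.8 and 12.4 CPM in E861A and at 11.8, 12.0 and 11.7 CPM in wild type, a log2 fold change of 0.13 ± 0.07 (SE, adjusted p 0.613). *Pcdhb10* was at 5.02, 4.66 and 4.80 CPM against 4.40, 4.23 and 4.62 CPM (0.13 ± 0.11, adjusted p 0.758). *Pcdhb22* was at 9.18, 9.04 and 9.27 CPM against 9.95, 9.32 and 9.47 CPM, with a log2 fold change of -0.063 ± 0.081 (SE, adjusted p 0.850). These 3 genes were picked for this separation.

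The most abundant beta genes had log2 fold changes close to 0. *Pcdhb19* was at 26.3, 22.8 and 27.4 CPM in E861A and at 26.2, 24.8 and 26.9 CPM in wild type, with E861A libraries at both extremes. *Pcdhb16* was at 24.1, 23.7 and 22.8 CPM against 23.2, 22.4 and 25.01 CPM. *Pcdhb17* was at 18.9, 19.3 and 18.1 CPM against 18.3, 18.7 and 18.7 CPM. Their log2 fold changes were -0.028 ± 0.069, 0.0036 ± 0.060 and 0.017 ± 0.062 (SE), with adjusted p of 0.934, 0.991 and 0.960.

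Among the least abundant, *Pcdhb2* was at 3.84, 4.44 and 3.84 CPM in E861A and at 3.84, 3.36 and 3.75 CPM in wild type, with a log2 fold change of 0.15 ± 0.12 (SE, adjusted p 0.746). *Pcdhb8* was at 3.22, 3.31 and 3.20 CPM against 2.52, 3.52 and 2.91 CPM, with overlap (0.12 ± 0.15, adjusted p 0.841). For *Pcdhb1*, an edgeR fit with no expression filter, in which 1.28% of 29282 genes were called, gave -0.092 ± 0.580 (SE, adjusted p 0.984). For its CPM, the exact two-sided permutation test over libraries gave p = 0.8, where 0.1 is the smallest value that 3 against 3 allows. At 3 to 8 counts per library, only a large change in *Pcdhb1* would have been detectable.

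**Figure D4:**
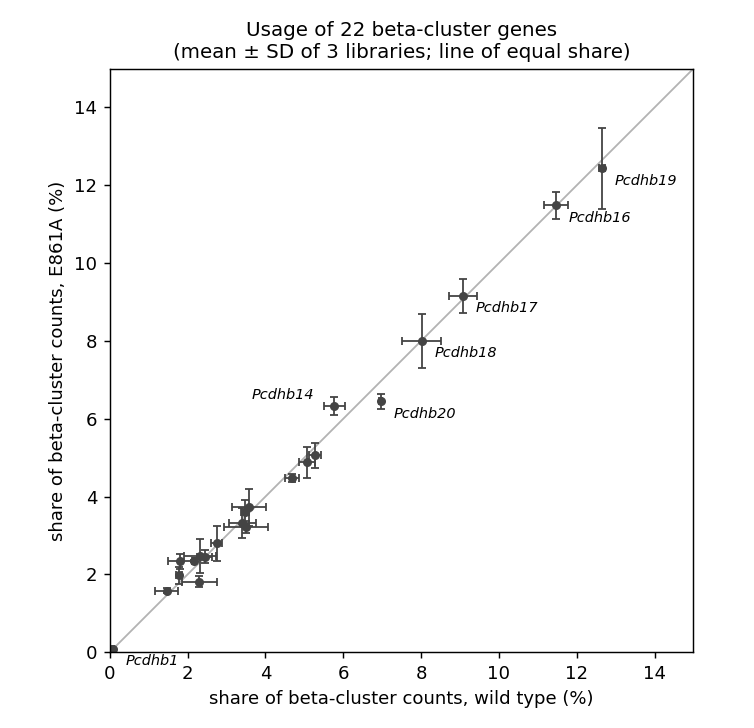
Share of beta-cluster counts taken by each of the 22 beta genes, in percent, in wild type (x axis) and E861A (y axis), as mean and SD of 3 libraries with the line of equal share. The genes follow the line from *Pcdhb1*, near 0%, to *Pcdhb19*, at 12.6% in wild type and 12.4% in E861A.

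Isoform usage was measured as the share of each beta gene in the counts of the beta cluster. *Pcdhb19* took 12.5%, 11.4% and 13.4% in E861A against 12.7%, 12.5% and 12.7% in wild type. *Pcdhb16* took 11.2% to 11.8% over the 6 libraries and *Pcdhb17* 8.85% to 9.66%. These shares depend on exon length, and *Pcdhb19*, the gene with the longest model, ranked below *Pcdhb17*, *Pcdhb16* and *Pcdhb20* in mean level per kb.

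Mean shares differed between genotypes by -0.52 to 0.56 percentage points. For 4 of the 22 genes the shares did not overlap, 3 higher in E861A (*Pcdhb6*, *Pcdhb10* and *Pcdhb14*) and 1 lower (*Pcdhb20*), to be read beside the 13.8% of all genes tested that did not overlap in CPM. *Pcdhb20* took 6.67%, 6.29% and 6.38% in E861A, compared with 6.92% or more in each wild-type library. Its CPM overlapped between genotypes and its log2 fold change was -0.11 ± 0.07 (SE, adjusted p 0.672). *Pcdhb14* took 6.52%, 6.39% and 6.07% in E861A and 5.70%, 6.07% and 5.55% in wild type, so that replicate 3 of E861A and replicate 2 of wild type nearly met.

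The evenness of usage was summarised by the effective number of beta genes, the exponential of the Shannon entropy of the shares, which would be 22 if all genes were used equally. It was 17.6, 17.7 and 17.2 in E861A and 17.4, 17.3 and 17.4 in wild type. The wild-type values fell inside the E861A range. Per kb of exon the values were 18.8 to 19.1 in all 6 libraries. *Pcdhb16* to *Pcdhb22* together took 57.1% ± 1.07 of beta counts in E861A and 58.1% ± 0.65 in wild type (SD, n = 3), with overlap.

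Annotated genes within or between the clusters, other than the 24 rows, were read by position. They number 8, and 6 of them passed the CPM filter, of which 0 were called by edgeR. A row for which GENCODE vM1 gives the name *Pcdha3*, with no symbol in the table, lies within the alpha cluster. It had 170, 137 and 126 counts in E861A and 181, 161 and 177 in wild type, a log2 fold change of 0.0076 ± 0.145 (SE, adjusted p 0.992). Genes on the opposite strand were *Gm10545* and *Gm10544* within the alpha cluster and *Gm16882* within the gamma cluster, with log2 fold changes of 0.15 ± 0.11, 0.061 ± 0.175 and 0.12 ± 0.08 (SE). Their adjusted p were 0.732, 0.944 and 0.666. The library kit marks strand, but the strand setting of the counts is not given in the sources used here, so parts of *Gm10545* and *Gm16882* that overlap protocadherin exons are uncertain.

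*Taf7*, which encodes a general transcription factor subunit and lies between the beta and gamma clusters, had a log2 fold change of -0.0075 ± 0.083 (SE, adjusted p 0.988). *3222401L13Rik*, beside it, had 76, 110 and 79 counts in E861A and 89, 91 and 90 in wild type. Scaled to library totals the genotypes did not overlap, with a log2 fold change of 0.23 ± 0.13 (SE, adjusted p 0.640).

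**Figure D5:**
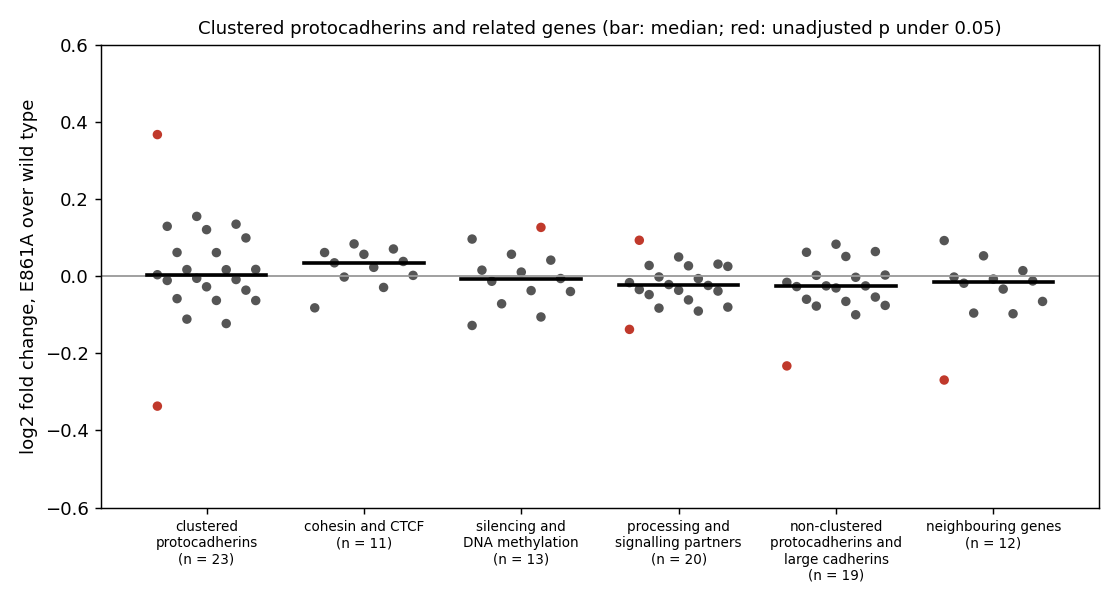
Log2 fold change of E861A over wild type (y axis) for the tested clustered protocadherins and for 5 lists of related genes (x axis, number tested in brackets), with black bars for medians and red points for an unadjusted p under 0.05. List medians lie between -0.025 and 0.034, and no gene of these lists was called.

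Genes related to the clustered protocadherins by function, family or position were examined in 5 lists. These were cohesin and CTCF genes, silencing and DNA methylation genes, processing and signalling partners, non-clustered protocadherins and large cadherins, and neighbours on chromosome 18. The lists held 83 symbols, of which 80 were matched and 75 tested. The symbols not matched were *Wapal*, listed beside *Wapl*, *Dchs2*, and a neighbour listed as *Diap1*. No other spelling of that neighbour was tried, so it was not examined. None was called by the edgeR quasi-likelihood test, against the 0.506% of all genes. None was called by the likelihood ratio test, DESeq2 or limma-voom either, against 139, 82 and 68 of all 13649 genes. At an unadjusted p under 0.05 there were 5 (6.67%) by edgeR, where 9.01% of all genes tested passed. The other tools gave 4, 2 and 5 in that order, where 8.79%, 6.44% and 8.79% of all genes passed. With the replicate block in the edgeR fit the number was 13 (17.3%), where 15.2% of all genes tested passed.

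CTCF and cohesin fold enhancers onto protocadherin promoters. The 11 tested genes of that list had a median log2 fold change of 0.034, with 8 above 0. *Nipbl*, the cohesin loader, was at 164.2 ± 4.36 CPM in E861A and 157.5 ± 5.07 CPM in wild type (SD, n = 3), a log2 fold change of 0.061 ± 0.042 (SE, adjusted p 0.702). *Pds5b*, a cohesin regulator, had a log2 fold change of 0.038 ± 0.044 (adjusted p 0.832).

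Promoters that are not chosen are kept silent by DNA methylation and repressive chromatin. The 13 tested genes of that list had a median of -0.0062. *Dnmt3a*, a DNA methyltransferase, was at 134.2 ± 12.2 CPM in E861A and 138.0 ± 13.8 CPM in wild type (SD, n = 3). Its log2 fold change was -0.040 ± 0.066 (SE, adjusted p 0.890). *Tet1*, which oxidises methylcytosine, was at 45.7 ± 2.53 CPM in E861A and 41.9 ± 2.23 CPM in wild type (SD, n = 3). It had a log2 fold change of 0.13 ± 0.05 (SE, unadjusted p 0.0359, adjusted p 0.525).

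Another list held proteases that cleave protocadherins, kinases their cytoplasmic tails restrain, the WAVE complex they bind, and other signalling and adhesion genes. Its 20 tested genes had a median of -0.023. *Cyfip2* and *Nckap1*, WAVE complex subunits, had log2 fold changes of -0.048 ± 0.052 and 0.028 ± 0.047 (SE, adjusted p 0.820 and 0.893). *Nlgn2*, a postsynaptic adhesion gene, had a log2 fold change of -0.14 ± 0.06 (SE, adjusted p 0.515) and *Ptk2*, which encodes focal adhesion kinase, 0.093 ± 0.041 (SE, adjusted p 0.539), both with an unadjusted p under 0.05.

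Non-clustered protocadherins and the large cadherins of the Celsr, Fat and Dchs families, 19 of them tested, had a median of -0.025. *Fat3* and *Celsr2* were the most abundant, with log2 fold changes of 0.064 ± 0.047 and -0.076 ± 0.052 (SE, adjusted p 0.719 and 0.699). *Celsr1*, a planar cell polarity gene, was at 7.35 ± 0.186 and 8.65 ± 0.410 CPM (SD, n = 3) without overlap. It had a log2 fold change of -0.23 ± 0.09 (SE, unadjusted p 0.0188, adjusted p 0.460). Of the genes beside the clusters on chromosome 18, 12 were tested and had a median of -0.015, with *Zmat2* and *Ik* at -0.018 ± 0.047 and -0.066 ± 0.047 (SE, adjusted p 0.935 and 0.711). *Arap3* had a log2 fold change of -0.27 ± 0.11 (SE, unadjusted p 0.0333, adjusted p 0.522).

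The summed levels of 4 marker lists of other cell types did not overlap between genotypes, while the sums of the other marker lists did. For single genes, 13.8% of all genes tested did not overlap in CPM. The sums of the alpha, beta and gamma rows overlapped. The 4 choroid plexus markers summed to 208.3 to 317.0 CPM in E861A and 373.0 to 397.2 CPM in wild type. The 4 endothelial markers summed to 65.3 to 84.8 and 90.6 to 103.5 CPM, the 4 meningeal and fibroblast markers to 67.8 to 82.4 and 49.4 to 60.4 CPM, and the 6 astrocyte markers to 5129 to 5355 and 4495 to 4727 CPM. The choroid plexus sum was mostly that of *Ttr*. Within that list *Ttr* and *Kl* did not overlap, while *Folr1* and *Otx2* overlapped. Of the endothelial markers *Flt1* did not overlap, while *Cldn5*, *Pecam1* and *Ly6c1* overlapped. In the meningeal list *Lum* overlapped, and *Col1a1*, *Col1a2* and *Dcn* did not. Of the astrocyte markers *Slc1a2* did not overlap and the other 5 did, the list's median log2 fold change being 0.025. *Col1a2*, a collagen gene of the meningeal list, was the only gene of these 4 lists called (log2 fold change 0.42 ± 0.08, SE, adjusted p 0.0199). With the replicate block, a fit applied to these lists after their values were seen, *Slc1a2* and *Ttr* were called too (edgeR, adjusted p 0.0374 and 0.0241). The 8 neuronal markers summed to 5860 to 5946 CPM in E861A and 5874 to 6037 CPM in wild type, with overlap. Among them *Snap25* was lower in E861A (log2 fold change -0.038 ± 0.048, SE) and *Map2* higher (0.076 ± 0.050, SE), both without overlap. The other neuronal markers overlapped, and no neuronal marker was called. No marker of these lists was at 0. The part of cell composition in the protocadherin values was not tested.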

How the data were processed

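Whole-brain RNA of 3 E861A and 3 wild-type animals was depleted of ribosomal RNA and sequenced with a stranded kit. The authors aligned reads to mm9 (NCBIM37) and deposited raw counts per gene from STAR; their processing notes name STAR 2.5.2a and Trimmomatic 0.36. The table held 0 summary rows. Positions and exon lengths were read from GENCODE vM1, which holds all 37310 identifiers. Deposited CPM values repeat these counts, and deposited fold changes, mean expression and false discovery rates hold the authors' own comparison; neither was used. Library totals ran from 26853488 to 38076753 counts, and a count of 0 allows up to 0.112 CPM in the smallest library (3 counts, counting error only).

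CPM used column totals. Counts were tested in R 4.3.3 with edgeR 4.0.16 (quasi-likelihood, TMM factors from 0.986 to 1.02, no covariates) on the 13649 genes that reached a CPM of 2 in all 3 libraries of one or the other genotype, with Benjamini-Hochberg adjustment. Intervals are 95% from the fitted SE and t distribution. The fit was also run on counts simulated with its own estimated dispersions, which cannot show how it behaves where its model fails. No p-value was computed for sums or shares. Same-numbered libraries deviated together (r of 0.22, 0.33 and 0.11 across genes), and the replicate block treats them as paired by number. Other matchings of the libraries were not examined, and the origin of any pairing is not given in the sources used here. Of the 13649 genes tested, 69 were called without the block and 158 with it. Printed values are unpaired unless the replicate block is named. Alternatives were DESeq2 1.42.0, limma 3.58.1 (voom), other scaling and filters, thinning, GC offsets, the replicate block and omission of each library.

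The members and lists were chosen with earlier results of these data known. Named genes were those with an unadjusted p under 0.05, the 3 highest and 3 lowest of a cluster by CPM, the rows next to the filter, the largest rise and fall, and the 2 most abundant genes of each related list, of which 1 is not reported here; *Pcdhb10*, *Pcdhb14*, *Pcdhb20*, *Pcdhb22* and the genes named by position were added after their values were seen. Of the marker lists, those that overlapped between genotypes and are not named in the results (serotonergic, Purkinje and granule neurons, oligodendrocytes and their precursors, microglia) had 0 called genes.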

Additional observations from a re-analysis of the deposited data

How the results depend on the processing

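In all 18 alternative fits, 0 clustered protocadherins and 0 related genes were called. Of all genes tested, the fits called from 42 of 13691 (without E861A replicate 3) to 376 of 29282 (no filter). The fits reuse the same 6 libraries, and at such low shares 0 calls do not set these genes apart. With the replicate block the lowest adjusted p of a protocadherin was 0.152 (*Pcdhb6*), and the block changed no call among the protocadherins and related lists, while called marker genes went from 1 to 3. Medians of the tested rows ran from -0.020 to 0.047, against a replicate SD of 0.053. Direction was followed for 18 named genes, and 302 of 324 values kept it. These genes were the tested rows whose fold change is given above and, of the related lists, only the genes with an unadjusted p under 0.05. Other named genes of the lists were not followed. Genes picked for a difference tend to keep their direction in fits to the same counts. The 22 others were of rows near 0. With GC offsets, and with GC offsets and the replicate block, the log2 fold change was 0.0028 and 0.0024 for *Pcdha11*, 0.012 and 0.011 for *Pcdhga8*, -0.0046 and -0.0060 for *Pcdhb17*, and -0.046 in both for *Pcdhb16*. *Pcdhb16* was also at -0.0068 without a filter, -0.0032 with filterByExpr and -0.026 after thinning. Over the omission of each library, the range was -0.030 to 0.0040 for *Pcdha11*, -0.020 to 0.047 for *Pcdhb16*, -0.016 to 0.037 for *Pcdhb17*, -0.090 to 0.043 for *Pcdhb19* and -0.034 to 0.031 for *Pcdhga8*. The cause was not tested. Without E861A replicate 1 or 3, 0 protocadherins had an unadjusted p under 0.05, where 8.04% and 5.54% of all genes tested did. The difference in the effective number of beta genes was 0.14, and 0.034 to 0.28 over the omissions. Totals without C-type isoforms could not be computed, since both clusters are single rows.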

Other observations

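The sign of the estimated difference was unevenly spread along the beta array, in a split chosen after the values were seen. Of *Pcdhb2* to *Pcdhb14*, 10 of 13 had a log2 fold change above 0, with a median of 0.061, and of *Pcdhb15* to *Pcdhb22*, 2 of 8, with a median of -0.032. Across the 21 tested beta genes, the log2 fold change went with position at a Spearman rho of -0.49 and a Pearson r of -0.29, with exon length at rho -0.42, with mean CPM at rho -0.39 and with GC content at rho 0.26, as descriptions over genes that share libraries. Position and level per kb rise together in this array (rho 0.80). Length goes with position (rho 0.37) and with level per kb (rho 0.29) more weakly. Their parts cannot be told apart here, and no gene of either stretch was called.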
